A study of Homo sapiens with 6 samples.

Results

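CCL26 and 9 other chemokines that epithelial cells can make (CCL20, CCL28, CXCL1, CXCL2, CXCL3, CXCL5, CXCL8, CXCL16 and CX3CL1) were followed in RNA-seq libraries of HCT116, an established human colorectal carcinoma cell line. The 10 genes were listed by symbol and found through their Ensembl identifiers, among 60240 genes in the deposited table. CCL26 was chosen by its fold change between WT and LSD1 KO libraries in these same data, and the others were listed by name with that comparison in view. All differences between LSD1 KO and WT libraries are therefore given below as a description and not as a test of the members. Differences between replicate numbers, a measure that the rule does not name, are tested, although the list was drawn up with earlier results of these data known.

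There were 3 libraries of WT and 3 of LSD1 KO cells, numbered 1 to 3 in each group, and were made from polyA RNA. LSD1, encoded by KDM1A, is a histone demethylase that removes methyl groups from lysine 4 of histone H3. The LSD1 KO cells were made with CRISPR/Cas9 directed to exon 1 of the gene, short puromycin selection and expansion of individual clones, and the WT cells are described with neither a guide nor a vector control. How many clones gave the 3 LSD1 KO libraries is not given in the sources used here, so a difference between clones and a difference between genotypes cannot be told apart. Both groups were grown in McCoy's 5A medium with fetal bovine serum and penicillin/streptomycin. Apart from these and the puromycin selection, no cytokine or other agent is named for either. The study's methods speak of biological replicates for its experiments in general, but neither they nor the labels say what separated these libraries, and p-values may then measure only the spread between these libraries.

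The libraries held 25379279 to 29186963 counts. Levels are given as CPM, counts scaled to the library size with TMM size factors. The floor was set at 3 counts, worth 0.103 to 0.118 CPM depending on the library when scaled by library totals without the TMM factors. This floor and the intervals below account for counting error alone. KDM1A itself had counts of 6119, 5927 and 6451 in the WT libraries and 837, 749 and 734 in the LSD1 KO libraries, a log2 fold change of -2.97 (SE 0.15, adjusted p = 0.000451, edgeR's quasi-likelihood test with Benjamini-Hochberg adjustment over 17672 genes). It was lower in each of the 3 LSD1 KO libraries and was the 1 gene called at an adjusted p (q) under 0.1 by this fit, which holds no term for the replicate number. The epithelial identity in the labels was met by its markers: 9 of 10 listed epithelial genes were tested, with summed levels of 2219 to 4153 CPM in WT and 2705 to 3467 CPM in LSD1 KO libraries.

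Chemokines are small secreted proteins that direct the migration of leukocytes through receptors coupled to G proteins. CCL26, or eotaxin-3, is a ligand of CCR3 on eosinophils and is induced in epithelium by IL-4 and IL-13 through STAT6. CXCL1, CXCL2, CXCL3, CXCL5 and CXCL8 attract neutrophils through CXCR1 and CXCR2 and are classical targets of NF-kappaB and AP-1. CCL20 attracts cells carrying CCR6, and CCL28 attracts cells carrying CCR10 to mucosal surfaces. CXCL16 and CX3CL1 are made as transmembrane proteins and released by proteases such as ADAM10 and ADAM17.

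The neutrophil chemokines lie together on chromosome 4, and stretches of their promoters are shown first because CXCL1, CXCL2 and CXCL3 share a sequence there. In RefSeq coordinates on GRCh38.p14, CXCL8 spans chr4:73740569-73743716, CXCL1 chr4:73869393-73871308, CXCL5 chr4:73995642-73998677, CXCL3 chr4:74036589-74038689 and CXCL2 chr4:74097040-74099195. Positions in a promoter are counted back from the start in the RefSeq promoter record, with -1 for the base before it, and windows of 250 bases were searched on both strands for the kappa-B consensus, the AP-1 motif TGANTCA, the STAT motif (TTC, any 4 bases, GAA) and the TATA box TATAAA. The stretches from -200 to -51 follow, 5′ to 3′ along each gene's own strand, and capitals mark a motif match.
CXCL1, chr4:73869193-73869342, forward strand: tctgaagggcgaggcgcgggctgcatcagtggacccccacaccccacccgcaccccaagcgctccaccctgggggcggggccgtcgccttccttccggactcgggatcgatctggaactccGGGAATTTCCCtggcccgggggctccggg
CXCL2, chr4:74099246-74099395, reverse strand: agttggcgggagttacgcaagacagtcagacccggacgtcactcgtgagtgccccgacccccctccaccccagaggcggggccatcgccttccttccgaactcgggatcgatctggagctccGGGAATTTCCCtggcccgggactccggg
CXCL3, chr4:74038740-74038889, reverse strand: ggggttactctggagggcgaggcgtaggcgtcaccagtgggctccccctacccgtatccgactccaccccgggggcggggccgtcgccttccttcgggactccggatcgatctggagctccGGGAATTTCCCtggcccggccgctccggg
CXCL8, chr4:73740369-73740518, forward strand: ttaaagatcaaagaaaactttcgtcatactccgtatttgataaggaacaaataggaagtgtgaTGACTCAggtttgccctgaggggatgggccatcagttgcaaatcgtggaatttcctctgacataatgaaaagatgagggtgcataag
CXCL1, CXCL2 and CXCL3 held the same run of 23 bases, ctccGGGAATTTCCCtggcccgg, from -83 to -61 in CXCL1 and CXCL3 and from -82 to -60 in CXCL2. The word in capitals holds overlapping matches of the kappa-B consensus on both strands, and its forward match of 10 bases occurred on either strand in 50 of 35116 RefSeq promoter windows of this length (0.142%). CXCL5 held that word as well, from -91 to -82. The broader kappa-B consensus was found in 9.96% of all windows, and CCL20 had a match on the reverse strand from -79 to -70. CXCL8 had no exact match of that consensus. Its stretch above does hold tggaatttcc, which differs from GGGAATTTCC in the first base alone, and such near matches were not counted. CXCL8 also had TGACTCA from -137 to -131 and a TATA box from -31 to -26, motifs present in 6.57% and 10.7% of all windows. CCL20 held a TATA box as well, from -29 to -24. No STAT motif, found in 5.38% of all windows, was matched in any member's window. The window of CCL26, on chromosome 7, held none of the 4 motifs. That window is the record RefSeq promoters hold for CCL26, but it does not border the start of the gene: it lies inside the gene's span, at chr7:75789747-75789996, and overlaps an exon annotated as 5′ UTR of the transcript CCL26-202 in GENCODE v44lift37. One of the 2 windows of CCL28 likewise lies inside that gene and overlaps an annotated UTR. The windows of CXCL8 and CCL20 overlap annotated UTRs of other transcripts of these genes over their last 50 and 20 bases, and for CXCL8 that stretch holds the TATA box. The bases before the outermost start of CCL26, at 75791597, and before its shorter transcript were not searched. Promoter windows were found for CCL26, CCL20, CCL28, CXCL1, CXCL2, CXCL3, CXCL5 and CXCL8.

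CCL26 (chr7:75769524-75791597) was at the floor in WT libraries and at a low level in LSD1 KO libraries. Its counts were 2, 1 and 2 in WT replicates 1, 2 and 3, and 29, 29 and 25 in LSD1 KO replicates 1, 2 and 3. Every WT library was thus at or under 3 counts, and every LSD1 KO library was above every WT library. In CPM the level was 0.0598 ± 0.0196 (SD, n = 3) in WT and 1.02 ± 0.0632 (SD, n = 3) in LSD1 KO libraries. Summed over libraries, 5 of 82228403 counts stood against 83 of 82577432, a ratio of 16.5 with an exact 95% interval of 6.81 to 52.2 that covers counting error only. In bulk RNA, more cells making CCL26 and more CCL26 RNA per cell cannot be told apart.

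The fitted log2 fold change of CCL26 was 3.98 (SE 0.53) without the replicate number in the model and 3.98 (SE 0.58) with it. Because the WT libraries hold so few counts, this value depends on the prior count of the fit. Of the 17672 tested genes, 2 had a higher fitted log2 fold change. Within pairs of the same replicate number, LSD1 KO exceeded WT by 2.90, 3.37 and 2.87 on the log2 CPM scale with a prior count of 2. The 3 LSD1 KO libraries differed from each other by a factor of 1.13, and 92.2% of tested genes varied more among them. At 25 to 29 counts per library, counting error alone can exceed that difference, so this closeness is not read as a trait of CCL26. CCL26 passed the filter on low counts only through the LSD1 KO libraries, so it had to differ once it was tested.

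Among the members, 6 passed that filter: CCL26, CXCL1, CXCL2, CXCL3, CXCL8 and CXCL16. At a q value under 0.1, 0 of the 6 were called between LSD1 KO and WT libraries by edgeR without the replicate number, where 0.00566% of all tested genes were called. With the replicate number as a block, 1 of the 6, CCL26, was called, where 1.6% of all tested genes were called and 1.05% were called higher in LSD1 KO. DESeq2 without the block called CCL26 as well and no other member, against 0.37% of the 25656 genes for which it gave an adjusted p. These counts describe genes listed for this comparison, and nothing further is read from them. CCL26 was also the only tested member whose LSD1 KO libraries all lay above its WT libraries, an order seen in 4.23% of tested genes, and no tested member had all LSD1 KO libraries below, an order seen in 3.51%.

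**Figure D1:**
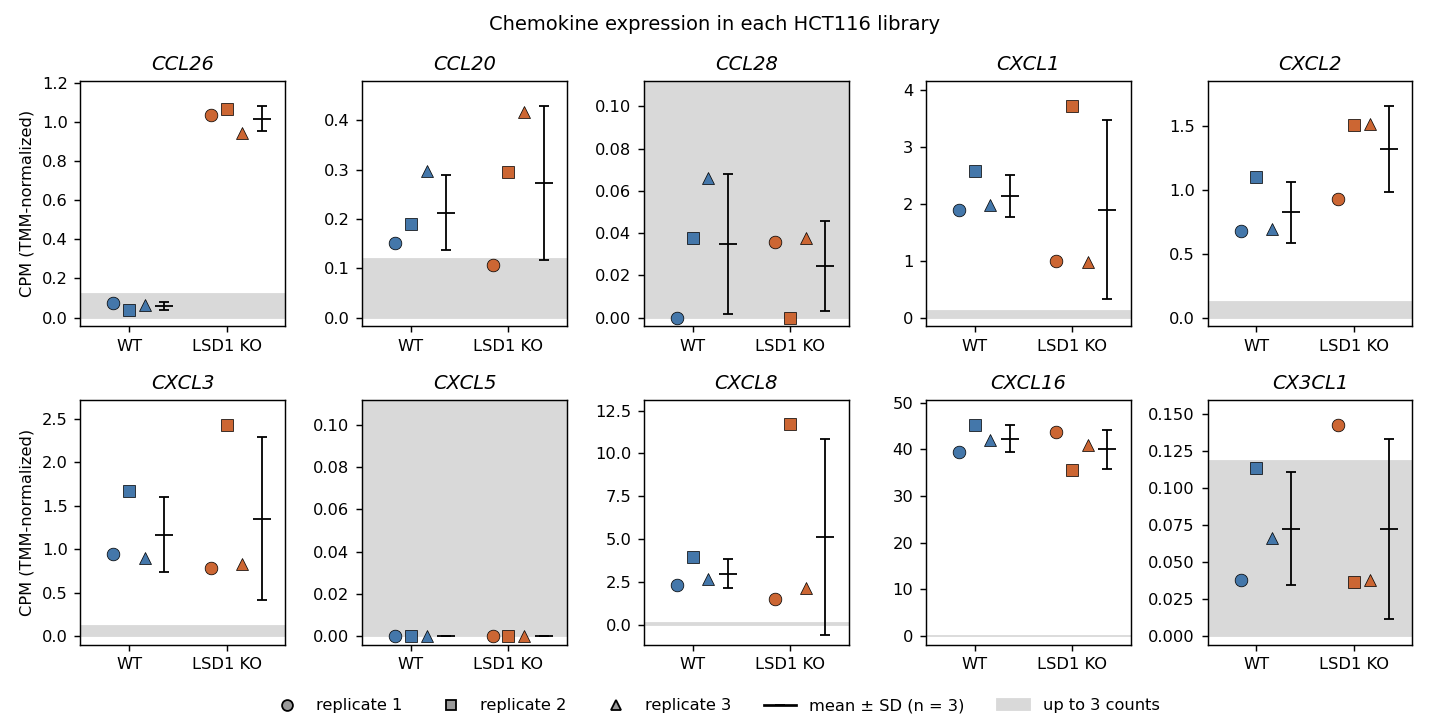
Level of each chemokine in each library (y axis, TMM-normalized CPM, a separate scale for each gene), with blue for WT, orange for LSD1 KO, a symbol for each replicate number, and mean ± SD (n = 3) beside them. CCL26 separates the genotypes, and replicate 2 of LSD1 KO stands above the others for CXCL1, CXCL3 and CXCL8. The grey band marks levels of up to 3 counts by the total of the smallest library, and all points of CCL28 and CXCL5 lie in it.

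Within 250 kb of CCL26, no other gene showed a difference of that size. The nearest is CCL24, eotaxin-2, another CCR3 ligand, which lies at chr7:75810825-75823372. CCL24 had counts of 5, 10 and 6 in WT and 10, 21 and 21 in LSD1 KO libraries. Its lowest LSD1 KO count equals its highest WT count, and its log2 fold change was 1.32 (SE 0.55, q = 0.999 by edgeR, and 0.323 with the replicate block). Of the 9 neighbours, 7 were tested, 0 were called with or without the block, and their log2 fold changes ran from -0.074 for PMS2P3, a pseudogene, to 1.32 for CCL24. The abundant neighbours HIP1, RHBDD2 and POR had log2 fold changes of 0.014, 0.081 and 0.066. Around all members, 53 neighbours were tested, and ADGRG1, an adhesion receptor gene near CX3CL1, was called with the replicate block alone (0.54, SE 0.11, q = 0.0711, edgeR), 1 of 53 beside 1.6% of all tested genes.

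**Figure D2:**
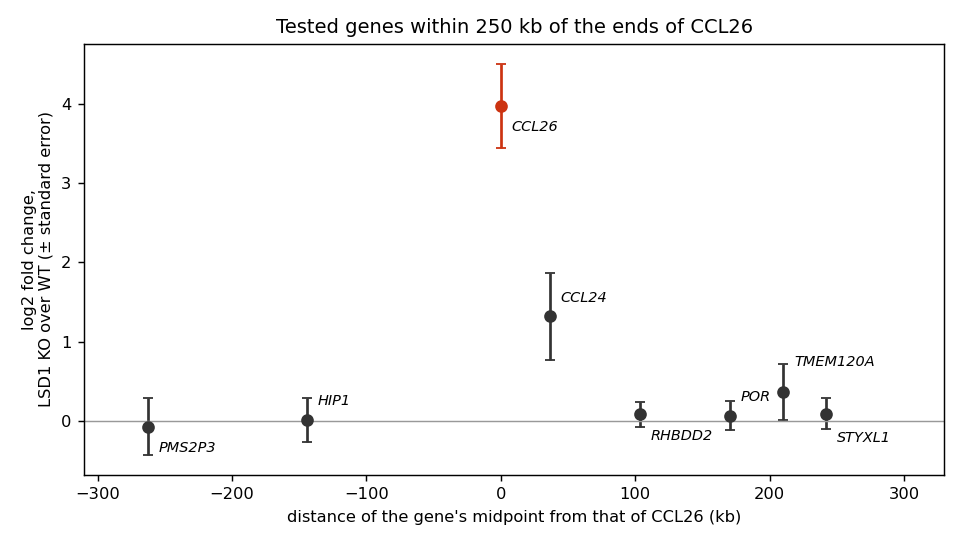
Fitted log2 fold change of LSD1 KO over WT (y axis, edgeR without replicate block; bars are the standard error) for CCL26 in red and the 7 tested genes within 250 kb of its ends in black, by the distance between gene midpoints in kb (x axis). CCL26 lies at 3.98, CCL24 at 1.32, and the other genes between -0.074 and 0.37.

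The neutrophil chemokines CXCL1, CXCL3 and CXCL8 were each highest in replicate 2 of both groups, and their genotype groups overlapped. CXCL8, or interleukin-8, had counts of 62, 104 and 81 in WT and 42, 319 and 56 in LSD1 KO libraries. The highest library in each group was replicate 2, and LSD1 KO replicates 1 and 3 lay below all 3 WT libraries. Its mean was 2.98 ± 0.838 CPM (SD, n = 3) in WT and 5.12 ± 5.74 CPM (SD, n = 3) in LSD1 KO libraries, so the difference was smaller than the spread within LSD1 KO. The highest and lowest LSD1 KO libraries differed by a factor of 7.82, and 371 tested genes (2.10%) had a wider spread.

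CXCL1 had counts of 50, 68 and 60 in WT and 28, 101 and 26 in LSD1 KO libraries. As for CXCL8, replicate 2 was highest in both groups, and LSD1 KO replicates 1 and 3 were the lowest libraries. The means were 2.15 ± 0.370 CPM in WT and 1.90 ± 1.57 CPM in LSD1 KO (SD, n = 3). CXCL3 had counts of 25, 44 and 27 in WT and 22, 66 and 22 in LSD1 KO libraries. Again replicate 2 was highest in both groups, and LSD1 KO replicates 1 and 3 were the lowest libraries. The CXCL3 means were 1.17 ± 0.431 CPM in WT and 1.35 ± 0.935 CPM in LSD1 KO (SD, n = 3), with overlapping groups.

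CXCL2 departed from these 3 genes, with counts of 18, 29 and 21 in WT and 26, 41 and 40 in LSD1 KO libraries. LSD1 KO replicates 2 and 3 were both above the WT libraries and LSD1 KO replicate 1 lay below WT replicate 2, so the groups overlapped. The means were 0.823 ± 0.236 CPM in WT and 1.32 ± 0.336 CPM in LSD1 KO (SD, n = 3), and LSD1 KO exceeded WT in every pair, by 0.41, 0.44 and 1.05 on the log2 CPM scale. CXCL5, the remaining neutrophil chemokine measured, had 0 counts in all 6 libraries, which allows up to 3 counts in each.

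The fitted genotype differences of these genes were within 2 standard errors of 0. CXCL8 had a log2 fold change of 0.78 (SE 0.71) without and 0.28 (SE 0.42) with the replicate block. For CXCL1 the values were -0.18 (SE 0.54) and -0.41 (SE 0.36), and for CXCL3 0.21 (SE 0.54) and 0.094 (SE 0.34). CXCL2 had 0.68 (SE 0.41) and 0.68 (SE 0.36). Single libraries set the direction of 3 of them. Without LSD1 KO replicate 2, CXCL8 turned to -0.74 and CXCL3 to -0.54, and CXCL1 was at -1.13. Without LSD1 KO replicate 1 or 3, CXCL1 turned to 0.13 or 0.14.

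**Figure D3:**
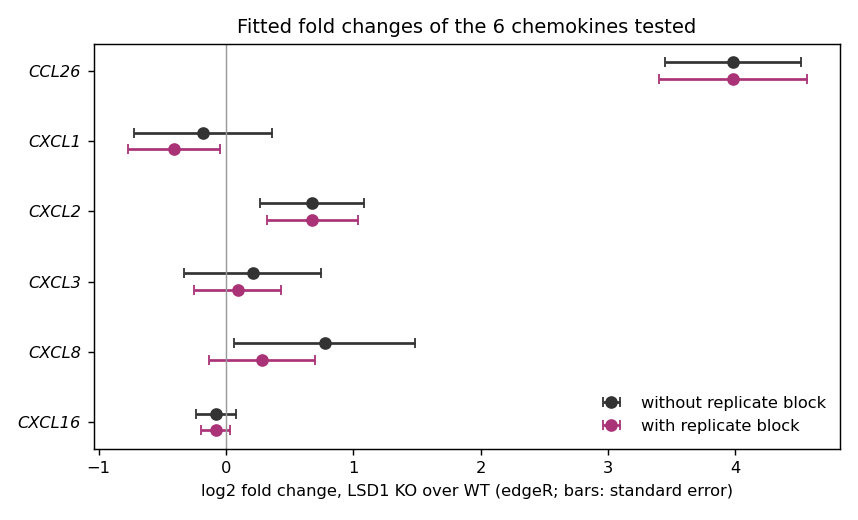
Fitted log2 fold change of LSD1 KO over WT (x axis, edgeR; bars are the standard error) of the 6 chemokines tested, without the replicate number in the model (grey) and with it as a block (purple). CCL26 lies near 3.98 in both models, and the bars of CXCL1, CXCL3, CXCL8 and CXCL16 cross or approach 0.

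The test of replicate number, an edgeR F test in the model that also holds the genotype, uses another contrast than the one CCL26 was chosen by. It called CXCL8 (q = 0.0329), CXCL3 (q = 0.0633) and CXCL1 (q = 0.0908), 3 of the 6 members tested, where 41.2% of all tested genes were called. The share of members is close to that of all genes, and nothing particular to the members is read from it. With library totals alone in place of TMM, CXCL1 was not called (q = 0.118). CXCL2 (q = 0.445), CXCL16 (q = 0.949) and CCL26 (q = 0.980) were not called. Without replicate 2 of both groups, 0 members were called, with q = 0.518 for CXCL8, 0.996 for CXCL3 and 0.966 for CXCL1. DESeq2's likelihood ratio test called CXCL8 alone (q = 0.00169), with q = 0.137 for CXCL1 and 0.201 for CXCL3.

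In size, the mean log2 CPM of replicate 2 exceeded that of replicates 1 and 3 by 1.65 for CXCL8, 1.16 for CXCL3, 1.11 for CXCL1 and 0.47 for CXCL2. Of all tested genes, 0.577% had a larger shift than CXCL8, 1.81% than CXCL3, 2.05% than CXCL1 and 16.4% than CXCL2. Over all tested genes the median shift was 0.000475, with quartiles of -0.351 and 0.324. For CCL26 the shift was -0.14 and for CXCL16 -0.050, so these were near the centre. The highest of the 6 libraries was LSD1 KO replicate 2 for CCL26, CXCL1, CXCL3 and CXCL8, 4 of the 6 members tested, where 20.3% of all tested genes peaked in that library. For CCL26 this was a near tie, at 1.04, 1.07 and 0.945 CPM in LSD1 KO replicates 1, 2 and 3, and without it the count is 3. What replicate 2 shared is not given in the sources used here.

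**Figure D4:**
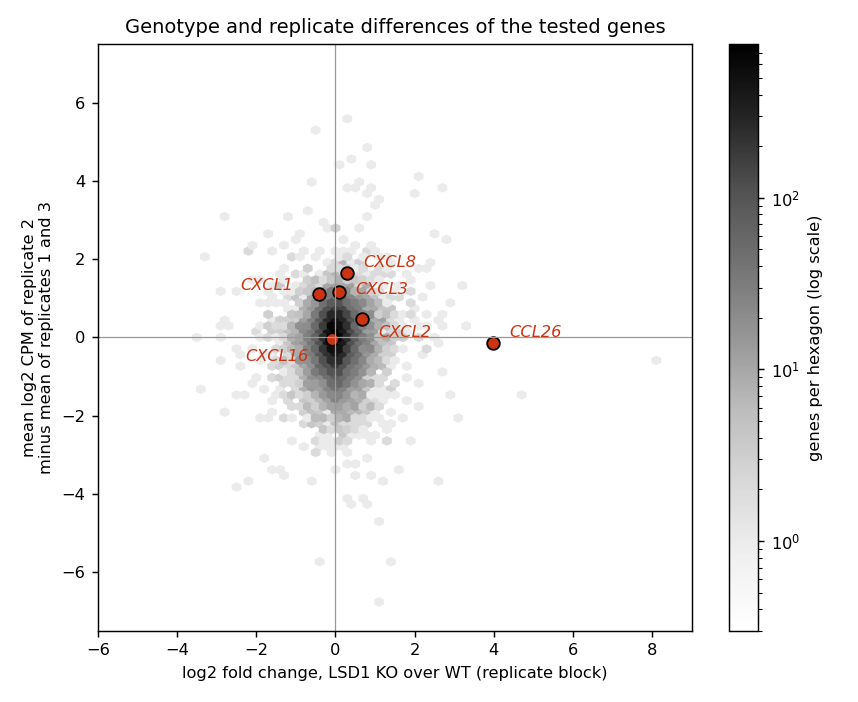
Each tested gene by its log2 fold change of LSD1 KO over WT with the replicate block (x axis) and by the mean log2 CPM of replicate 2 minus that of replicates 1 and 3 (y axis); grey shading counts genes per hexagon on a log scale and red points are the 6 chemokines tested. CCL26 lies far to the right at a replicate shift of -0.14, while CXCL8, CXCL3 and CXCL1 lie high, from 1.11 to 1.65, near a fold change of 0.

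CXCL1, CXCL2 and CXCL3 are close relatives, and reads cannot always be told apart between them. Of the 31-base words in the GENCODE v44lift37 transcripts of CXCL2, 14.04% also occur in CXCL3 and 11.6% in CXCL1. For CXCL1, 12.4% are shared with CXCL2, and for CXCL3, 8.79% are shared with CXCL2. These are shares of words and not of reads, and the uncertainty in the split of counts among these 3 genes was not measured. CCL26 and CXCL8 shared none of these words with another gene.

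CXCL16 (chr17:4733533-4739928), the transmembrane ligand of CXCR6, was the most abundant member and the steadiest of the CXC chemokines. Its counts were 1046, 1196 and 1269 in WT and 1223, 965 and 1081 in LSD1 KO libraries. The groups overlapped, with means of 42.2 ± 2.88 and 40.0 ± 4.15 CPM (SD, n = 3) and a log2 fold change of -0.077 (SE 0.16). The other transmembrane chemokine, CX3CL1 (chr16:57372490-57385044), was near the floor, with counts of 1, 3 and 2 in WT and 4, 1 and 1 in LSD1 KO libraries. Among 12 proteases that shed or trim chemokines, 5 were tested and 0 were called between genotypes with or without the block. ADAM10 had counts of 3163 to 3943 in WT and 3577 to 3918 in LSD1 KO libraries.

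The mucosal chemokines were scarce in both genotypes. CCL20 (chr2:227813842-227817556) had counts of 4, 5 and 9 in WT and 3, 8 and 11 in LSD1 KO libraries. The groups overlapped, the sums of 18 and 22 counts gave a ratio of 1.22 (exact 95% interval 0.623 to 2.41), and no difference was detectable at this depth. CCL28 (chr5:43356975-43412391) had 0, 1 and 2 counts in WT and 1, 0 and 1 in LSD1 KO libraries. No library exceeded the floor, and no fold is given. CX3CL1 had 6 counts in each group in sum, a ratio of 0.996 (exact 95% interval 0.266 to 3.72).

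Levels of different genes were compared as CPM per kb of the canonical transcript. In WT libraries, CXCL16 was highest at 18.2 ± 1.24 CPM per kb (SD, n = 3). CXCL1 (1.83 ± 0.315) and CXCL8 (1.82 ± 0.511) followed, and they did not differ beyond their spread. CXCL3 (1.09 ± 0.401) and CXCL2 (0.739 ± 0.212) overlapped in the same way. CCL20 was at 0.255 ± 0.0914, CCL26 at 0.126 ± 0.0413, and CX3CL1, CCL28 and CXCL5 were under 0.03 CPM per kb. In LSD1 KO libraries CXCL16 stayed first at 17.2 ± 1.79, and CCL26, at 2.14 ± 0.133, moved among the neutrophil chemokines by its mean. CXCL8 (3.12 ± 3.50), CXCL1 (1.62 ± 1.34), CXCL3 (1.25 ± 0.870) and CXCL2 (1.18 ± 0.301) were the others in that range. For CXCL8, CXCL1 and CXCL3 the range of libraries contained that of CCL26, through LSD1 KO replicate 2 alone. In LSD1 KO replicates 1 and 3, CCL26 was at 2.18 and 1.99 CPM per kb, above each of these neutrophil chemokines. CCL20 was at 0.327 ± 0.187 CPM per kb.

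Most further ligands were absent or near the floor, and few receptors had enough counts to be tested. Of 35 other chemokine ligands in the table, 17 had 0 counts in all libraries, 25 had at most 3 counts in any library, 3 were tested and 0 were called between genotypes with or without the block. CCL5 was the most abundant of those tested, with counts of 82, 117 and 136 in WT and 79, 80 and 74 in LSD1 KO libraries (log2 fold change -0.49, SE 0.28). Of 23 chemokine receptors, 9 had at most 3 counts in any library and 4 were tested. CCR3, the receptor of CCL26, had 0, 2 and 1 counts in WT and 1, 0 and 0 in LSD1 KO libraries, and CCR6, the receptor of CCL20, had none. CXCR2, the main receptor of the CXCL1 group, had 6, 0 and 4 counts in WT and 2, 0 and 2 in LSD1 KO libraries. CCR10, the receptor of CCL28, was among those tested. It had 31, 46 and 43 counts in WT and 32, 52 and 21 in LSD1 KO libraries, with overlapping groups. CXCR4, which none of the 10 ligands uses, had 17, 42 and 40 counts in WT and 12, 124 and 54 in LSD1 KO libraries, and with CXCR5 it was called by replicate number (q = 0.0271 and 0.0074, edgeR), 2 of the 4 receptors tested beside 41.2% of all tested genes.

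The IL-4 and IL-13 pathway, which induces CCL26 in other epithelia, was measured through 26 genes, of which 14 were tested. Without the replicate block 0 were called between genotypes, and 1 had an unadjusted p under 0.05, as did 552 of the 17672 genes tested. With it, where 1.6% of all tested genes were called, JAK3, a kinase of the shared cytokine receptor chain, was higher (log2 fold change 0.76, SE 0.13, q = 0.0381), from 228, 281 and 416 counts in WT to 438, 505 and 557 in LSD1 KO libraries. IRS1, an adaptor of insulin and IL-4 receptors, was lower (-0.75, SE 0.12, q = 0.0320, edgeR). Its counts were 1741, 1053 and 2110 in WT and 1279, 524 and 1130 in LSD1 KO libraries. The groups overlapped, while LSD1 KO lay below WT in each pair. STAT6, the transcription factor of the pathway, had 1098, 745 and 949 counts in WT and 1392, 813 and 744 in LSD1 KO libraries, with overlapping groups. IL4R, the receptor chain for both cytokines, had 609, 712 and 749 counts in WT and 626, 1190 and 701 in LSD1 KO libraries, highest in LSD1 KO replicate 2. ALOX15, another gene induced by IL-4 and IL-13, had 4, 5 and 6 counts in WT and 9, 28 and 13 in LSD1 KO libraries, and was under the filter on low counts. The median log2 fold change of the 14 tested genes was 0.078, beside 0.00082 over all tested genes.

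NF-kappaB and inflammatory signalling was measured through 47 genes, of which 35 were tested, with a median log2 fold change of -0.052 beside 0.00082 over all tested genes. Without the replicate block 0 were called between genotypes, and 2 had an unadjusted p under 0.05, beside the same 552 of 17672. With it, and again 1.6% of all genes called, CEBPB, a transcription factor of acute-phase and inflammatory genes, was higher in LSD1 KO (0.92, SE 0.091, q = 0.0084), and so was BCL3, a nuclear partner of NF-kappaB (0.67, SE 0.11, q = 0.0354). CEBPB had counts of 1543, 4842 and 3886 in WT and 2874, 10391 and 6261 in LSD1 KO libraries, so the groups overlapped while LSD1 KO exceeded WT in each pair. The same held for BCL3, with 383, 805 and 932 counts in WT and 628, 1511 and 1161 in LSD1 KO libraries. By replicate number 17 of the 35 were called (48.6%, beside 41.2% of all tested genes). Of those 17, 15 were higher in replicate 2 than in the mean of replicates 1 and 3, the direction of CXCL1, CXCL3 and CXCL8. Among all genes called by replicate number, 3895 of 7273 (53.6%) had that direction. RELB, an NF-kappaB subunit, had 198, 557 and 476 counts in WT and 213, 596 and 279 in LSD1 KO libraries. REL, another subunit, went the other way, with 732, 90 and 626 counts in WT and 664, 172 and 745 in LSD1 KO libraries.

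Markers of other cell types were low throughout but not equal between groups. The summed level of 15 leukocyte markers was 17.9 to 21.5 CPM in WT and 23.99 to 34.98 CPM in LSD1 KO libraries. Of these genes 6 had at most 3 counts in any library, CD3D, CD3E and CPA3 had none, and PTPRC had 3 counts in 1 library and none in the others. Most of the sum came from CD68, a lysosomal protein that other cells also make, with 425 to 537 counts in WT and 599 to 913 in LSD1 KO libraries. Fibroblast markers summed to 22.9 to 29.6 CPM in WT and 33.0 to 40.5 CPM in LSD1 KO libraries, with PDGFRA and LUM at 0, and most of that sum was COL1A1, which was higher with the replicate block (log2 fold change 0.52, SE 0.098, q = 0.0628, edgeR). Endothelial markers summed to at most 2.46 CPM in any library. EPCAM, an epithelial surface marker, was lower in LSD1 KO libraries with the replicate block (-0.98, SE 0.20, q = 0.0788, edgeR). Without the block edgeR called 0 of the 9 epithelial markers tested, and 4 had an unadjusted p under 0.05, as did 552 of the 17672 genes tested. DESeq2, which called 0.37% of all genes, called EPCAM lower (q = 0.0516) and ELF3, an epithelial transcription factor, higher (q = 0.0357). The part of these markers in the CCL26 difference was not tested.

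The genes whose pattern over the 6 libraries was most like that of CCL26, by Pearson's r of log2 CPM over 17666 other genes, were TMC5 (r = 0.991), ACYP2 (0.989), DENND2A (0.988), NDRG4 (0.987) and STX16 (0.986). TMC5, a transmembrane channel-like protein, had 255, 211 and 257 counts in WT and 478, 532 and 449 in LSD1 KO libraries. The genes most like CXCL8 were PMAIP1 (0.997), DHX58 (0.997), RGMB-AS1 (0.991), TLCD3B (0.991) and PRSS23 (0.991). PMAIP1, a pro-apoptotic BH3 protein also called NOXA, had 2449, 3120 and 2891 counts in WT and 2181, 5441 and 2422 in LSD1 KO libraries, with the peak in LSD1 KO replicate 2 that CXCL8 has. These r values rest on 6 libraries that share their groups and replicate numbers and are given as a description.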

How the data were processed

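Expression was measured in 3 WT and 3 LSD1 KO HCT116 libraries, each a separate sample in the labels. The authors checked reads with FastQC, trimmed them with Trimmomatic 0.39, quantified them with Salmon 1.4.0 against GENCODE transcripts on GRCh38 and deposited expected counts per gene in whole numbers, not scaled for depth (tool versions from the submitters' processing notes). The sum from transcripts to genes is not given in the sources used here. Symbols were matched by Ensembl identifier for 58395 of 60240 genes.

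Counts were normalized by TMM, filtered with filterByExpr by group and fitted over all genes with the quasi-likelihood test of edgeR 4.0.16 in R 4.3.3, with Benjamini-Hochberg adjustment and the threshold q under 0.1. The planned model had no replicate term. Libraries with the same replicate number deviated together from their group means (Pearson's r of 0.553, 0.553 and 0.404 across 17672 genes, against -0.516 to 0.0454 for other numbers), so the numbers pair the libraries by this check of the data, and the fit with the number as a block is given beside the results it changes. The replicate number was tested by an F test in that model. Between-library variation (common biological coefficient) fell from 0.279 to 0.133 with the block. Alternatives were DESeq2 1.42.0, other size factors and filters, and leaving out libraries. The steps were tested on simulated data in which the replicate number changed a smaller share of genes than was called here. That test checks the code and not how the fits perform on these libraries.

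Promoter windows and gene positions came from RefSeq (GRCh38.p14), and transcript lengths and 31-base words from GENCODE v44lift37. The members and gene lists were chosen with earlier results of these data known. Genes followed beside the members are those of each list called with or without the block. Where fewer were called, up to 3 of the smallest p were taken. The 5 most correlated with CCL26 and with CXCL8 were added, and not all of these genes are named in the report. HIP1, RHBDD2, POR, PMS2P3, CCL24, CCR3, CCR6, CXCR2, STAT6, IL4R, ALOX15, RELB, REL, CD68 and the other markers given by value were named after their values were seen.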

Additional observations from a re-analysis of the deposited data

How the results depend on the processing

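Genes called between LSD1 KO and WT numbered 1 in the planned fit, 2 with library totals alone, 114 with no filter on low counts, 95 by DESeq2, 282 with the replicate block (185 higher, 97 lower), 593 with the block in DESeq2 and 1055 with the block but without replicate 2 of both groups, a setting chosen after seeing the data. Leaving out 1 library gave 1 to 26 genes, the most without LSD1 KO replicate 2. Members called went from 0 to 1, CCL26, with no filter, by DESeq2, with the replicate block and with the block without replicate 2, and stayed at 0 when any 1 library was left out, with the block in DESeq2, which gave CCL26 no adjusted p, and with at least 10 counts in every library, which removed CCL26. CCL26 had a log2 fold change of 3.71 to 4.16 over the 13 alternatives that gave it an adjusted p. Genes called in the pathway and neighbour lists together, without the marker lists, went from 1, KDM1A, to 6 with the replicate block. Those 6 include ADGRG1, near CX3CL1. The count was 8 with the block in DESeq2 and 11 with the block without replicate 2. Genes called by replicate number went from 7273 to 4740 without replicate 2 of both groups (range 4740 to 5768 over the numbers left out), and members from 3 to 0 without replicate 2 (range 0 to 3), to 1 by DESeq2 and to 1 at q under 0.05. Directions between genotypes were reversed for genes that no fit called between genotypes. Over the libraries left out, the log2 fold change ran from -1.13 to 0.14 for CXCL1, -0.54 to 0.55 for CXCL3, -0.74 to 1.22 for CXCL8, -0.59 to 0.084 for CCR10, -2.76 to 3.87 for CXCR5 and -0.082 to 0.60 for DPP4. With the replicate block and without replicate 2 of both groups, it was -0.20 for CXCL3, -0.50 for CXCL8, 0.036 for CXCL16, -0.17 for DPP4 and 1.04 for CXCR5, which was at 0.34 with the block alone and 0.54 with the block in DESeq2. Among the listed genes with a comparison in the report, the block also brought under the threshold COL1A1, EPCAM, ADGRG1, JAK3, IRS1, BCL3 and CEBPB, with the values given there. The cause was not tested. Depth limits CCL20, CCL28, CXCL5 and CX3CL1, and the WT level of CCL26.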

Other observations

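A chemokine receptor was the most uneven of the listed genes between libraries of the same group. CXCR5, the receptor of CXCL13, had 0, 784 and 40 counts in WT and 78, 724 and 7 in LSD1 KO libraries. Replicate 2 of both groups held nearly all of its counts, and its difference between genotypes was a log2 value of -0.058 with a standard error of 1.69. MMP9, a protease that trims CXCL8, had 9, 21 and 12 counts in WT and 17, 48 and 13 in LSD1 KO libraries, again highest in replicate 2 of both groups (q = 0.0761 for replicate number, edgeR). BIRC3, an inhibitor of apoptosis and an NF-kappaB target, had 455, 560 and 661 counts in WT and 443, 1696 and 718 in LSD1 KO libraries, with its peak in the library where CXCL8 peaked (q = 0.0629 for replicate number, edgeR). TSLP, an epithelial cytokine of type 2 immunity, had 9, 9 and 9 counts in WT and 6, 30 and 10 in LSD1 KO libraries and was under the filter on low counts. These genes were named after their values were seen.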
